A study of Mus musculus with 8 samples.

Results

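The mitochondrial ribosomal protein genes are the nuclear genes whose symbols begin with Mrpl or Mrps, and they were examined here in cultured mouse oligodendrocyte progenitor cells kept in low or high glucose. Every row of the count table with a protein-coding gene of such a symbol was taken, 78 of 56980 gene IDs, and 5 processed pseudogenes with similar names were left out. The low glucose (LG) group holds 4 libraries and the high glucose (HG) group 4. All come from wild-type C57BL/6 pups of postnatal day 6 to 8, whose cortical cells were captured on an antibody against PDGFRα, the growth factor receptor of these progenitors. LG cultures had their medium partly exchanged so that glucose was 12.5 mM after day 1, then 5 mM after day 2 and 2.5 mM from day 3, whereas HG cultures stayed at 25 mM, and both were collected on day 5. Both groups received 10 ng/mL PDGF-AA throughout, a growth factor that keeps these progenitors dividing, after expansion with 20 ng/mL bFGF as well. RNA was measured as whole-number read counts per gene, in paired-end libraries of 150 bp reads made from 100 ng of total RNA.

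Mitochondria keep their own ribosome, which translates the few proteins encoded by the mitochondrial genome, all of them subunits of the respiratory chain and ATP synthase. Its ribosomal RNAs are made inside the organelle, but each of its proteins is encoded in the nucleus, translated in the cytosol and imported. Known mammalian structures place some of these proteins as homologues of bacterial ribosomal proteins and others as additions found only in mitochondria. Of the 78 genes, 26 encode small subunit proteins, 51 large subunit proteins and 1, Mrps36, a protein now known as a component of the 2-oxoglutarate dehydrogenase complex. Bacterial homologues account for 48 genes and mitochondria-specific proteins for 29. Symbols mislead in a few cases: Mrps30 and Mrps18a, named after the small subunit, encode large subunit proteins in the human and pig structures. The genes lie on 17 chromosomes, with 11 on chromosome 11 and 8 on chromosome 17.

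Library totals ran from 53869166 to 65733928 counts in LG and from 50864130 to 61915909 in HG, above the read depth that the labels state, for a reason not given in the sources used here. Summed markers of oligodendrocyte progenitors (7 of 7 detected) held 8771 to 11773 CPM in LG and 8378 to 11624 CPM in HG, where CPM is a gene's counts per 1000000 counts of its library. All 6 astrocyte markers were detected, with sums of 429 to 1396 CPM in LG and 498 to 1296 CPM in HG, and the highest sums were in libraries 1 and 2 of both groups. The 6 neuronal markers, mostly Map2, summed to 878 to 938 CPM in LG and 900.4 to 1060.4 CPM in HG. Microglial markers summed to at most 0.338 CPM in LG and 0.542 CPM in HG, with Cx3cr1 and Itgam at 0. Endothelial markers summed to 6.04 to 7.37 CPM in LG and 5.01 to 6.60 CPM in HG. These were mostly Vwf and Kdr, with means of 3.57 and 2.29 CPM, while Cldn5 and Cdh5 were at 0 in all 8 libraries. Myelin genes summed to 486 to 735 CPM in LG and 488 to 678 CPM in HG, mostly Cnp. Mural and fibroblast lists rested mostly on Cspg4, which progenitors express too, and Fbln1. The part that these cells had in the values below was not tested. In bulk RNA, fewer cells of a type and less RNA per cell cannot be told apart. Libraries 1 and 2 of each group carry the same code in their column names, and it was taken here as a shared preparation. The protocol speaks of independent biological preparations, and what the code stands for is not stated. For this reason n counts libraries, and p-values measure only the spread between them. All 37 mitochondrially encoded gene IDs are listed at 0, so the ribosomal RNAs and the translated messages could not be set beside their ribosome.

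Transcript levels of the family were read as CPM scaled with TMM library factors and, where genes are compared with each other, as CPM per kilobase of annotated exon. Together the 78 genes took 0.318%, 0.282%, 0.311% and 0.290% of all counts in LG libraries 1 to 4, against 0.286%, 0.272%, 0.294% and 0.300% in HG libraries 1 to 4, and the groups overlapped. Over 8 libraries the per-length level of the 77 genes with reads had a median of 14.4 CPM per kb and quartiles of 7.50 and 24.6. Mrps21, a homologue of bacterial S21, was highest at 73.5 CPM per kb, with 76.0 ± 11.3 in LG and 70.9 ± 7.07 in HG (mean ± SD, n = 4 each). Mrpl28, Mrps33, Mrpl34 and Mrps7 followed at 46.6, 46.3, 45.1 and 42.7 CPM per kb, and the first 3 of these differed by less than the SD of each. At the other end, Mrps34 was at 2.60 and Mrpl33 at 3.06 CPM per kb. Exon length was taken over all annotated isoforms, which lowers the value of genes with long alternative exons. Per kilobase of the longest annotated transcript, the order changed: Mrps21 stayed highest at 111, followed by Mrps33 at 69.8, Mrpl20 at 66.3 and Mrpl28 at 56.7, while Mrps34 at 2.85, Mrps25 at 5.12 and Mrpl1 at 5.78 were lowest and Mrpl33 stood at 8.19. Mrpl20, Mrps25 and Mrpl1 were named after their values were seen. The library with the fewest reads for any tested gene of the family held 229 counts of it.

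**Figure D1:**
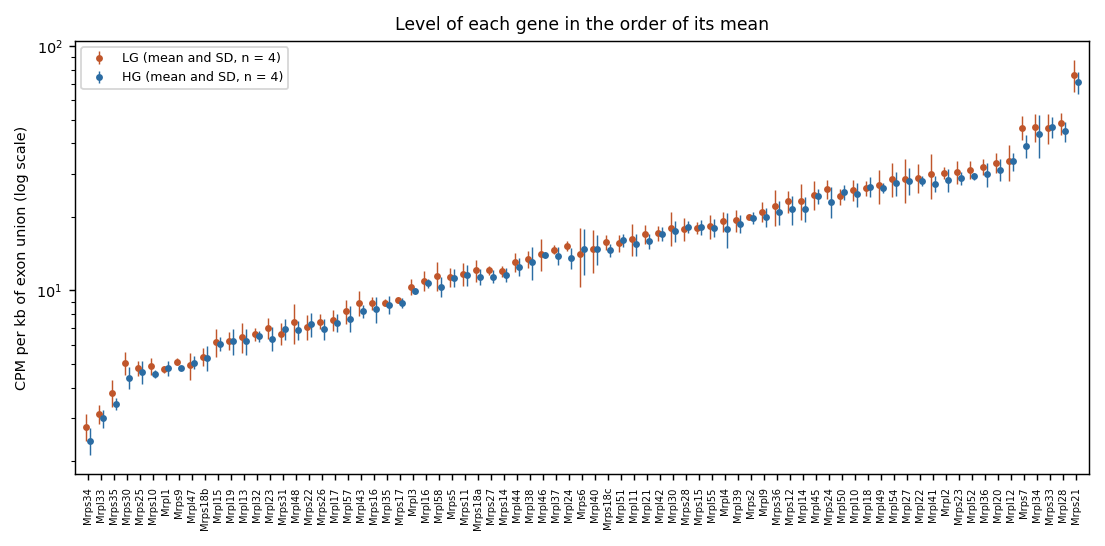
Level of each of the 77 detected genes in CPM per kb of exon (log axis), in order of the mean over 8 libraries. Points give the mean and bars the SD over 4 libraries of LG (orange, left of each pair) and HG (blue), and within a gene the groups lie close together over a range from 2.60 to 73.5 CPM per kb.

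Mrpl53 was the 1 gene of the family with no count in any of the 8 libraries. Of its 790 bp of annotated exon, 695 bp (88.0%) are also exon of Gm42688, a gene on the same strand that held 25 to 72 counts per library. Whether reads of Mrpl53 were set aside as shared between these genes was not tested, so its 0 is not read as absence of the transcript.

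Transcripts of this family were at nearly the same level in LG as in HG, and none passed the test. In the edgeR quasi-likelihood test with Benjamini-Hochberg adjustment over 18905 genes, 0 of the 77 tested genes passed an adjusted p of 0.05, and 0% of all genes tested did so. The lowest adjusted p of the family was 0.99985. DESeq2 and limma-voom also called 0 of the 77, beside 4 and 0 of all 18905 genes. At an unadjusted p under 0.05 stood 1 gene, Mrps7, a share of 1.3% beside 3.94% of all genes. Blocking on the replicate number, 79 genes passed, 0.418% of those tested, and 0 of the family did, where the lowest adjusted p was 0.180. In that fit 3 of the 77 genes (3.9%; Mrps7, Mrps30 and Mrpl24) had an unadjusted p under 0.05, beside 13.4% of all genes. All 3 were higher in LG, beside 6.02% of all genes.

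The intervals around these small differences were narrow. The 95% interval of the fold change lay within 1.5-fold either way for all 77 genes, against 58.7% of all genes tested, and its bounds over the family reached -0.52 and 0.52 on the log2 scale. The median standard error of a log2 fold change was 0.102 in the family, and 0.0723 with the replicate block. The family's median level was 33.8 CPM, against 13.1 CPM over all genes tested, and the part of level in these widths was not tested. Log2 fold changes of LG over HG ran from -0.063 to 0.25, and 57 of the 77 lay between -0.1 and 0.1.

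Within that range most values were above 0. A positive log2 fold change was seen for 65 of the 77 genes (84.4%), beside 51.4% of all genes tested, and the median was 0.061 in the family and 0.0051 over all genes. The small subunit (20 of 26 positive, median 0.065) and the large subunit (44 of 50, median 0.059) both showed this. Among bacterial homologues 42 of 48 were positive (median 0.056), and among mitochondria-specific proteins 22 of 28 (median 0.061). These are descriptions of genes whose levels move together in each library, as set out further on, and not independent observations. With the replicate block, 64 of the 77 values (83.1%) were positive, beside 50.4% of all genes. Without libraries 1 and 2 of both groups, which share a code, 40 of the 77 values were positive (51.9%, beside 52.1% of all genes). The median was 0.0027, beside 0.0074 over all genes, so the family did not stand above the other genes in that fit.

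**Figure D2:**
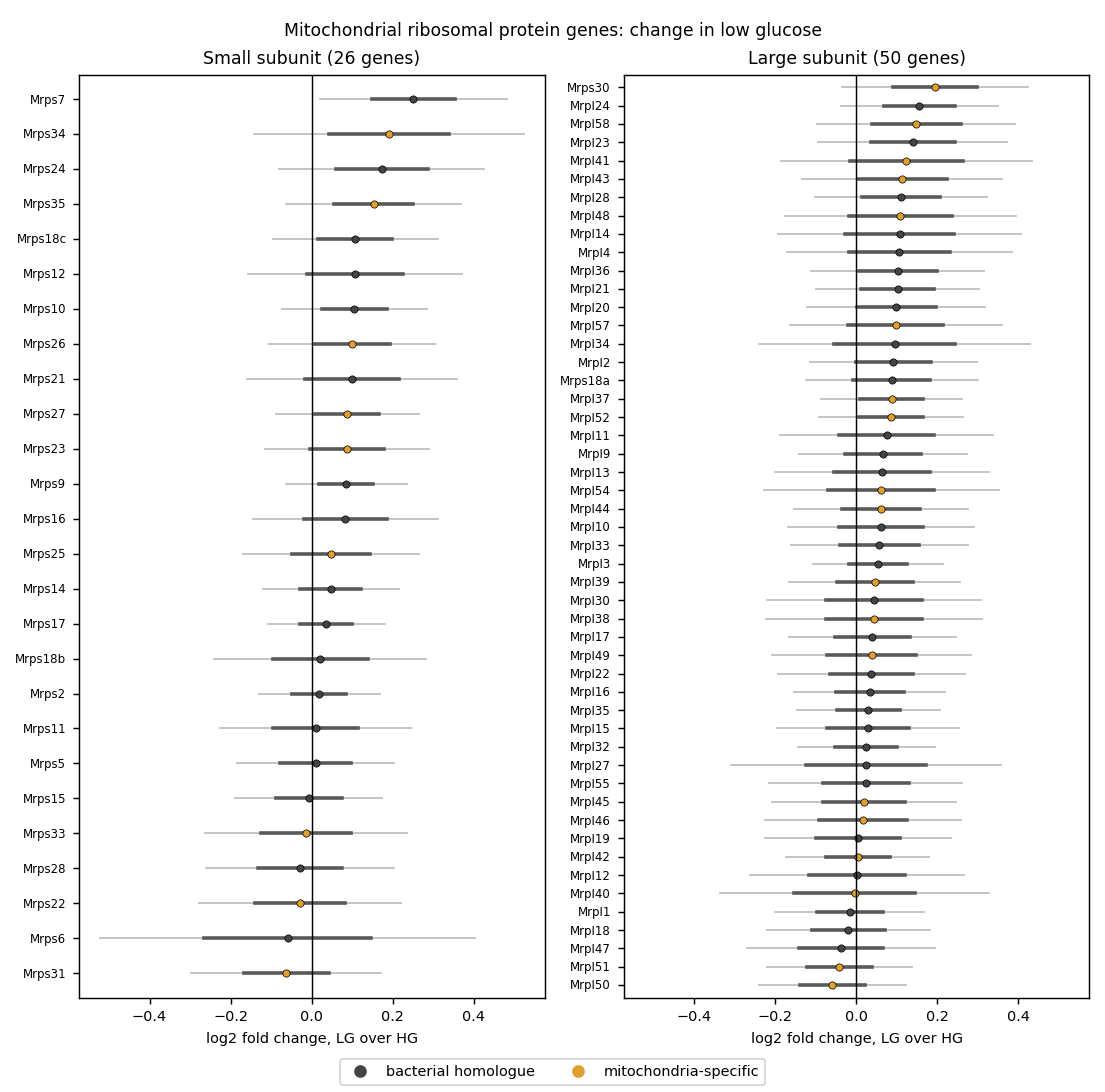
Log2 fold change of LG over HG for 76 genes, small subunit left and large subunit right, ordered by value. Points are coloured by origin (dark, bacterial homologue; amber, mitochondria-specific), thick bars are ± 1 SE and thin bars 95% intervals from the edgeR fit on 4 libraries per group; apart from Mrps7, every interval includes 0.

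Mrps7, the homologue of bacterial S7 that binds ribosomal RNA in the head of the small subunit, had the highest fold change. Its level was 101, 82.4, 108 and 93.1 CPM in LG libraries 1 to 4, against 78.2, 72.4, 80.3 and 92.4 CPM in HG libraries 1 to 4. LG libraries 1, 3 and 4 were above all HG libraries, while LG 2 lay below HG 4, so the groups overlapped. The log2 fold change was 0.25 ± 0.103 (SE), with a 95% interval of 0.021 to 0.48 and an edgeR quasi-likelihood p of 0.0355 before adjustment. With the replicate block the value was 0.25 with a Benjamini-Hochberg adjusted p of 0.180. Mrps7 spans chr11:115603925-115608036 on the plus strand of GRCm38 and shares 119 bp of exon with Mif4gd and 127 bp with Gga3, both on the opposite strand.

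The overlapping neighbour Mif4gd, named for its MIF4G domain, had 20.3, 19.4, 17.8 and 23.4 CPM in LG libraries 1 to 4, against 13.4, 14.3, 14.4 and 16.0 CPM in HG libraries 1 to 4. It was 1 of the 79 genes that passed with the replicate block, at a log2 fold change of 0.47 and an adjusted p of 0.0381 in edgeR's quasi-likelihood test, and all 4 LG libraries were above all HG libraries. Gga3 had a log2 fold change of 0.18 in the same fit (adjusted p = 0.224). Strand use in the counting is not stated, so reads of these genes within the shared bases cannot be told apart, and their part in the Mrps7 value was not tested.

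Mrps30 and Mrps34 came next. Mrps30, a mitochondria-specific large subunit protein, stood at 34.7, 31.0, 38.2 and 30.5 CPM in LG libraries 1 to 4, against 27.8, 26.3, 30.5 and 32.9 CPM in HG libraries 1 to 4. LG libraries 1 and 3 were again the highest, and LG 2 and LG 4 lay inside the HG range. Its log2 fold change was 0.19 ± 0.103 (95% interval -0.035 to 0.42). For Mrps34, a mitochondria-specific protein that human and mouse cells need for a stable small subunit, the levels were 6.39, 4.76, 6.19 and 5.58 CPM in LG libraries 1 to 4, against 4.22, 4.84, 5.45 and 5.57 CPM in HG libraries 1 to 4. HG 1 was the lowest of the 8 libraries and the groups overlapped, at a log2 fold change of 0.19 ± 0.149. Mrps34 shares 763 bp (37.0% of its exon) with Nme3 on the same strand, itself at 0 in all libraries, and 1309 bp with Mapk8ip3 on the opposite strand, so its low level is uncertain.

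Mrps24, the homologue of bacterial S3 at the entry of the messenger RNA, showed 41.2, 34.8, 41.2 and 35.6 CPM in LG libraries 1 to 4, against 29.3, 30.1, 38.8 and 37.3 CPM in HG libraries 1 to 4. HG 1 and HG 2 were below all LG libraries, and HG 3 and HG 4 were among them. The log2 fold change was 0.17 ± 0.113, with 226 bp of exon shared with Urgcp on the same strand. Mrpl24, a homologue of bacterial L24, which is among the first proteins to join the large subunit in bacteria, was at 32.7, 33.4, 36.3 and 34.6 CPM in LG libraries 1 to 4, against 28.7, 28.0, 31.7 and 34.6 CPM in HG libraries 1 to 4. Only HG 4 reached the LG range, and the log2 fold change was 0.16 ± 0.0871 (95% interval -0.039 to 0.35). Mrps35, mitochondria-specific and in the small subunit, had 30.8, 30.3, 38.9 and 31.8 CPM in LG libraries 1 to 4, against 28.3, 28.2, 30.1 and 31.9 CPM in HG libraries 1 to 4. LG 3 stood apart from the other 7 libraries, and the log2 fold change was 0.15 ± 0.0970.

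The 6 lowest values were nearer to 0 than the 6 highest. Mrps6, the homologue of bacterial S6, varied most between libraries, at 29.2, 22.7, 19.2 and 15.5 CPM in LG libraries 1 to 4, against 28.4, 24.5, 19.4 and 18 CPM in HG libraries 1 to 4. In both groups library 1 was highest and library 4 lowest, and same-numbered libraries of LG and HG lay close together. Astrocyte markers, summed, were also high in libraries 1 and 2, at 1396, 1254, 544 and 429 CPM in LG libraries 1 to 4, against 1277, 1296, 570.1 and 498 CPM in HG libraries 1 to 4, and their part in the Mrps6 level was not tested. The log2 fold change was -0.059 ± 0.206 without a block, the widest interval of the family at -0.52 to 0.40. With the replicate block it was -0.073 ± 0.0721, with an interval of -0.23 to 0.086. Mrps6 shares 159 bp of exon, 10.4% of its own, with the myo-inositol transporter gene Slc5a3 on the same strand, whose log2 fold change with the replicate block was -0.31 (adjusted p = 0.120, edgeR), lower in LG in 4 of 4 pairs.

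Mrps31, a mitochondria-specific protein of the small subunit, read 24.2, 22.6, 22.1 and 18.8 CPM in LG libraries 1 to 4, against 25.3, 20.1, 22.6 and 23.7 CPM in HG libraries 1 to 4, and the groups overlapped at a log2 fold change of -0.063 ± 0.105. Mrpl50 averaged 51.3 ± 3.85 CPM in LG and 53.5 ± 3.72 CPM in HG (SD, n = 4 each), with -0.059 ± 0.0812 on the log2 scale. Mrpl51 averaged 63.1 ± 4.99 CPM in LG and 64.9 ± 4.11 CPM in HG, and Mrpl47, the homologue of bacterial L29 near the exit of the peptide tunnel, 21.8 ± 2.76 CPM in LG and 22.4 ± 1.33 CPM in HG. Their log2 fold changes were -0.041 ± 0.0801 and -0.038 ± 0.104. Mrps22, whose variants cause a human mitochondrial disease, averaged 28.4 ± 3.33 CPM in LG and 29.0 ± 3.36 CPM in HG, at -0.029 ± 0.112. None of these 6 differences exceeded the spread between libraries. Mrps36, which is no ribosomal subunit, averaged 28.2 ± 4.73 CPM in LG and 26.6 ± 3.00 CPM in HG, at 0.086 ± 0.132.

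Genes chosen for their role lay between these ends. Mrps12, the homologue of the bacterial decoding-centre protein S12, had 25.2, 20.5, 26.2 and 24.3 CPM in LG libraries 1 to 4, against 19.4, 20.2, 24.1 and 25.7 CPM in HG libraries 1 to 4, with HG 1 and HG 2 lowest and a log2 fold change of 0.11 ± 0.118. Genes of the stalk that recruits translation factors stayed close to 0: Mrpl12 at 0.0016 ± 0.118, Mrpl10 at 0.061 ± 0.103 and Mrpl11 at 0.075 ± 0.118. Mrpl12, whose human protein also binds the mitochondrial RNA polymerase, averaged 51.7 ± 8.60 CPM in LG and 51.6 ± 4.40 CPM in HG. Mrpl45, which ties the human ribosome to the inner membrane, averaged 64.1 ± 8.54 CPM in LG and 63.2 ± 4.49 CPM in HG and had a log2 fold change of 0.019 ± 0.102. Mrpl58, a peptidyl-tRNA hydrolase built into the large subunit that can release stalled chains, averaged 38.3 ± 5.07 CPM in LG and 34.6 ± 3.18 CPM in HG and stood at 0.15 ± 0.110.

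Mammals carry 3 paralogues of bacterial S18, with different places in the ribosome. Mrps18a of the large subunit averaged 44.5 ± 4.75 CPM in LG and 41.9 ± 3.21 CPM in HG (SD, n = 4 each). Mrps18b of the small subunit averaged 11.2 ± 0.961 CPM in LG and 11.1 ± 1.30 CPM in HG. Mrps18c, also of the small subunit, averaged 16.9 ± 1.15 CPM in LG and 15.7 ± 1.01 CPM in HG. Log2 fold changes were 0.087 ± 0.0951 for Mrps18a, 0.021 ± 0.117 for Mrps18b and 0.11 ± 0.0910 for Mrps18c, and each interval included 0. Per length, Mrps18b was lowest of the 3 at 5.33 CPM per kb, with Mrps18a at 11.7 and Mrps18c at 15.2.

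Same-numbered libraries were then compared pair by pair. Of the 77 genes, 70 were higher in LG than in HG in pair 1, 54 in pair 2, 66 in pair 3 and 15 in pair 4, while 50%, 51.5%, 50.7% and 48.2% of all genes tested were. The median log2 difference over the family was 0.19, 0.047, 0.10 and -0.11 in pairs 1 to 4, and 0.057 ± 0.124 over the 4 pairs (mean of the medians ± SD). The pairs thus did not share a direction, since 3 were on balance higher in LG and pair 4 lower. A pattern of higher values in pairs 1 to 3 and a lower one in pair 4 was met by 39 genes (50.6%), beside 13.1% of all genes. This pattern was taken from the family's own medians, so its excess over all genes was given in advance and is no separate support.

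Higher in LG in all 4 pairs were 6 of the 77 genes (7.79%), beside 10.8% of all genes: Mrpl23, Mrps7, Mrps9, Mrps17, Mrps18c and Mrps27. Of these, Mrpl23, Mrps9, Mrps17 and Mrps27 are outside the rule for named genes and were named after their values were seen. No gene of the family (0 of 77) was lower in all 4 pairs, beside 11% of all genes. Mrps9, the homologue of bacterial S9, was the 1 gene with every LG library above every HG library, beside 1.07% of all genes, and for 0 of the 77 was every LG library below every HG library, beside 1.82%. Its levels were 30.8, 28.6, 29.4 and 28.8 CPM in LG libraries 1 to 4, against 28.3, 27.7, 27.8 and 27.1 CPM in HG libraries 1 to 4. The steps were small, with a log2 fold change of 0.085 ± 0.0668, and the SD was 0.980 CPM in LG and 0.477 CPM in HG. Mrpl23, the homologue of bacterial L23 at the exit of the peptide tunnel, had 36.4, 29.4, 36.4 and 34.7 CPM in LG libraries 1 to 4, against 27.2, 29.2, 34.8 and 33.0 CPM in HG libraries 1 to 4. HG 1 and HG 2 were below all LG libraries and HG 3 and HG 4 among them, at a log2 fold change of 0.14 ± 0.105.

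**Figure D3:**
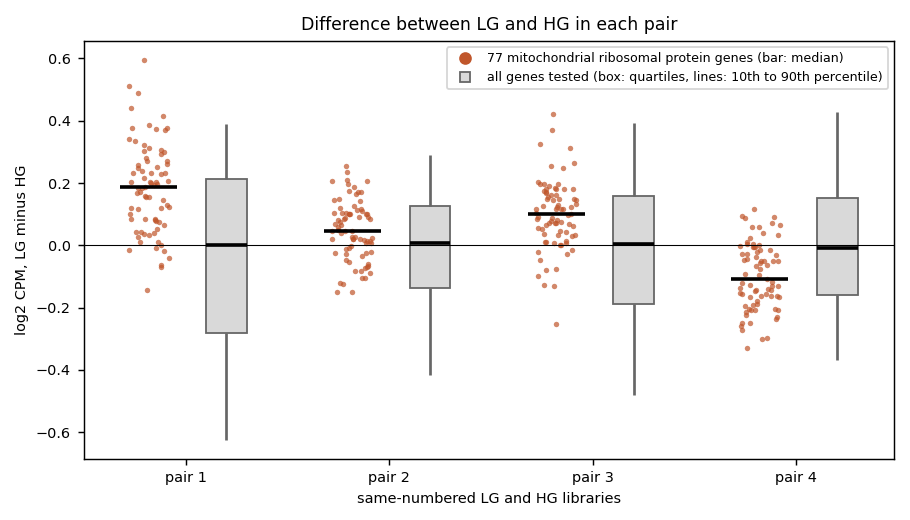
Log2 CPM of LG minus HG within each same-numbered pair. Orange points are the 77 genes with their median as a bar, and grey boxes give quartiles (lines, 10th to 90th percentile) of all 18905 genes; the family median is above 0 in pairs 1, 2 and 3 and at -0.11 in pair 4.

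Leaving out pair 4, or pairs 1 and 2 together, moved this summary in opposite directions. The fit without pairs 1 and 2 had no block and held only pairs 3 and 4, whose family medians were 0.10 and -0.11. With the replicate block and without pair 4, 72 of 77 values (93.5%, beside 50.8% of all genes) were positive with a median of 0.115. In that fit 18 of the 77 genes (23.4%) had an unadjusted p under 0.05, a share near the 21.9% of all genes. The adjusted threshold was passed by 0 of the 77, beside 148 of all 18809 genes tested. The lowest adjusted p of the family was 0.0512 (edgeR quasi-likelihood, Benjamini-Hochberg). Without pair 1, 47 of 77 were positive (61%, beside 51.3%), with a median of 0.021. Without pair 2, 63 were positive (81.8%, beside 50.6%), and without pair 3, 56 (72.7%, beside 50.6%).

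The genes of the family were high or low together from library to library within each group. Relative to each gene's own mean over the 8 libraries, the family median was 0.142, -0.105, 0.143 and -0.056 on the log2 scale in LG libraries 1 to 4, against -0.025, -0.143, 0.019 and 0.053 in HG libraries 1 to 4. Of the 77 genes, 71, 11, 69 and 21 were above their own mean in LG libraries 1 to 4, against 30, 2, 54 and 54 in HG libraries 1 to 4. LG 1 and LG 3 were high and LG 2 and HG 2 low for nearly the whole family, and the groups overlapped. Over 8 libraries, some of which share a preparation code, the median correlation between 2 genes of the family was 0.582. On 1 component lay 57.4% of the family's variance. Neither value is given for other gene sets, so moving together is not read as particular to this family. The median SD within a group was 0.141 on the log2 scale in the family and 0.220 over all genes tested. The median level of all genes tested was lower, at 13.1 CPM against 33.8 CPM in the family.

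**Figure D4:**
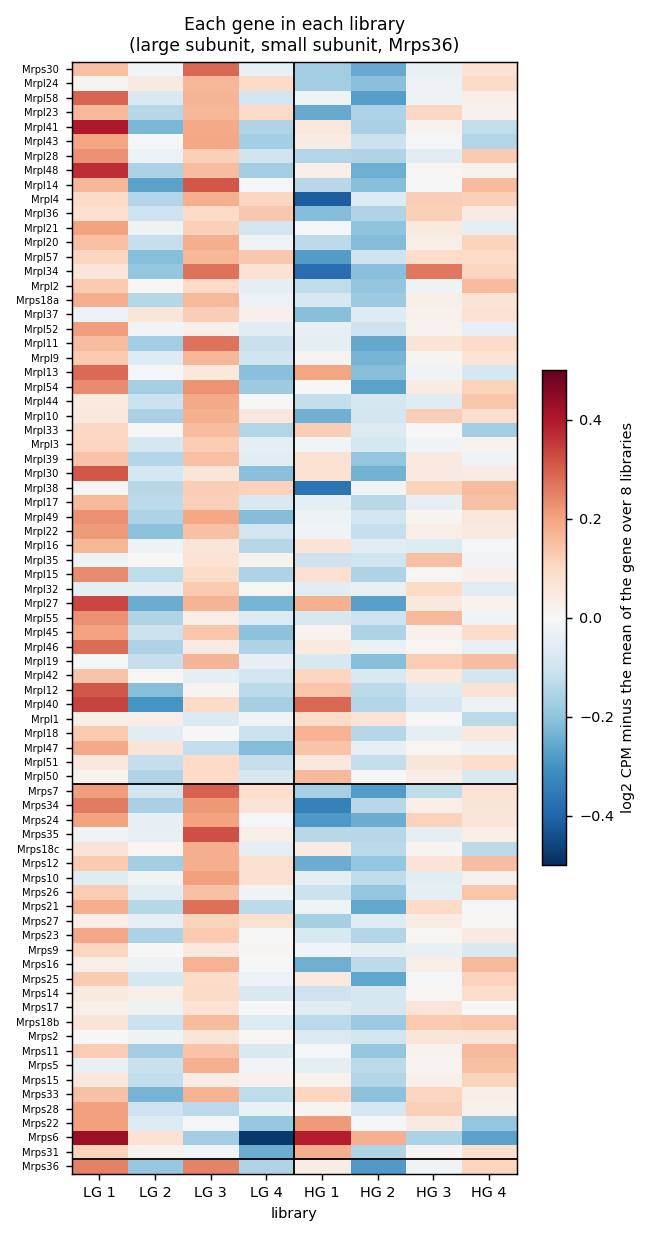
Log2 CPM of each gene minus its mean over 8 libraries, for 77 genes (lines, by subunit and fold change) in LG 1 to 4 (left) and HG 1 to 4 (right); red is above and blue below the mean. Columns LG 1 and LG 3 are mostly red and columns LG 2 and HG 2 mostly blue, so the 4 LG libraries differ among themselves, as do the 4 HG libraries.

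Libraries also differed in how levels went with transcript length and GC content. Across all genes with a known length, the rank correlation of the log2 deviation with transcript length was -0.204, 0.248, -0.262 and 0.080 in LG libraries 1 to 4, against -0.084, 0.243, -0.036 and -0.057 in HG libraries 1 to 4. Short transcripts were thus relatively high in LG 1 and LG 3 and low in LG 2 and HG 2. The same correlation with GC content was 0.110, -0.058, 0.275 and 0.119 in LG libraries 1 to 4, against -0.393, -0.197, -0.024 and 0.254 in HG libraries 1 to 4. The median transcript was 1.88 kb in the family against 2.90 kb over all genes tested, and the part of length and GC content in the family's levels was not tested beyond the fits that follow. After a smooth trend on GC content and length was removed from each library, the family median was 0.117, -0.066, 0.163 and -0.031 in LG libraries 1 to 4, against -0.116, -0.130, 0.038 and 0.060 in HG libraries 1 to 4. The median log2 fold change of the family was then 0.078, against 0.061 before, and that of all genes 0.024, against 0.0051 before. In pairs 1 to 4, 74, 61, 58 and 17 of the 77 genes were then higher in LG, beside 56.5%, 55.3%, 56.4% and 45% of all genes. With block and trend removal together, 151 genes passed (0.799%), 0 of them in the family, whose lowest adjusted p was 0.189 in edgeR's quasi-likelihood test. In that fit 7 of the 77 genes (9.09%) had an unadjusted p under 0.05, beside 13.3% of all genes, and all 7 were higher in LG, beside 7.67% of all genes.

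Other families of nuclear genes are given beside it from the same libraries. The nuclear genes for subunits of the respiratory chain and ATP synthase showed a median of 0.099 for the log2 fold change, 74 of 80 being positive, and pair medians of 0.239, 0.105, 0.129 and -0.101. Cytosolic ribosomal protein genes had a median of 0.098, with 71 of 78 positive and pair medians of 0.222, 0.197, 0.152 and -0.225. Mitochondrial ribosomal protein genes had the smallest of these 3 medians, a difference that was not tested. None of these genes passed the test without or with the replicate block. Of all 18905 genes tested, 0 passed without the block and 79 (0.418%) with it.

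**Figure D5:**
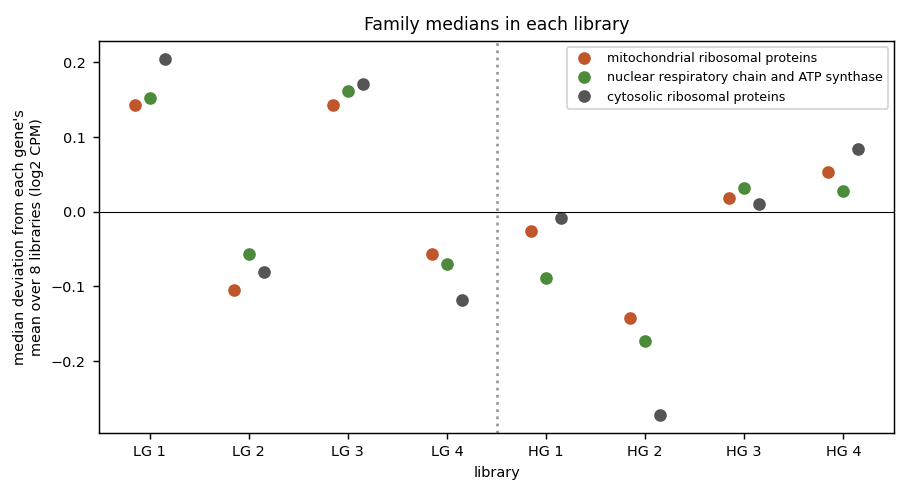
Median deviation of 3 gene families from each gene's mean over 8 libraries (log2 CPM), per library, LG left and HG right of the dotted line. Mitochondrial ribosomal protein genes (orange) range from -0.143 in HG 2 to 0.143 in LG 3, and respiratory chain (green) and cytosolic ribosomal protein genes (grey) are high and low in the same libraries.

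The remaining genes of mitochondrial translation were read from the same fit. Mitoribosome proteins with other symbols had 3 of 5 positive values. The small subunit GTP-binding protein Dap3 averaged 85.6 ± 7.33 CPM in LG and 79.9 ± 2.81 CPM in HG (log2 fold change 0.10 ± 0.0766), and Aurkaip1 stood at 0.11 ± 0.0970, with Gadd45gip1 at -0.020 ± 0.132 and Ptcd3 at -0.0023 ± 0.0826. Factors for ribosome assembly and ribosomal RNA modification were positive in 23 of 29 cases, with a median of 0.064. The GTPase Gtpbp6 had the highest value of that list, 0.30 ± 0.182, with 4.83, 5.70, 5.97 and 7.65 CPM in LG libraries 1 to 4, against 3.94, 6.01, 4.61 and 5.11 CPM in HG libraries 1 to 4, and the groups overlapped. Malsu1, which keeps immature large subunits from joining small ones, averaged 16.7 ± 1.05 CPM in LG and 14.8 ± 0.861 CPM in HG, a log2 fold change of 0.18 ± 0.0894 and higher in 4 of 4 pairs. Gtpbp10, a GTPase of late large subunit assembly, was lowest at -0.21 ± 0.105, and the ribosomal RNA methyltransferase Mrm2 stood at -0.11 ± 0.118.

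Translation factors had a negative median of -0.039, with 4 of 12 values positive. The recycling factor Mrrf was at 0.11 ± 0.10 and the elongation factor Tufm at 0.070 ± 0.0905, against -0.12 ± 0.124 and -0.10 ± 0.113 for the release factor genes Mtrf1 and Mtrf1l. Aminoacyl-tRNA synthetases of mitochondria had a median of 0.045, with 12 of 17 positive, from Sars2 at 0.15 ± 0.155 and Fars2 at 0.11 ± 0.116 to Mars2 at -0.19 ± 0.144 and Lars2 at -0.19 ± 0.162. Lars2 read 1021, 803, 1356 and 797 CPM in LG libraries 1 to 4, against 1198, 1052, 1223 and 1073 CPM in HG libraries 1 to 4, and the LG libraries enclosed the HG range. The next highest of that list, Iars2, named after its values were seen, averaged only 69.2 CPM in LG and 73.0 CPM in HG. How reads with several matches were counted is not given, and their part in the Lars2 values was not tested.

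Genes of mitochondrial transcription and genome upkeep had 5 of 9 positive values. The elongation factor Tefm was at 0.11 ± 0.118 and the polymerase subunit Polg2 at 0.10 ± 0.198, with Ssbp1 at -0.085 ± 0.102 and Mterf1a at -0.047 ± 0.154. Among nuclear regulators, 3 of 9 were positive: the coactivator gene Ppargc1b at 0.21 ± 0.246, Esrra at 0.055 ± 0.0840 and Nrf1 at 0.0068 ± 0.0794. Ppargc1a was lowest at -0.21 ± 0.582, with 17.8, 16.9, 6.49 and 5.33 CPM in LG libraries 1 to 4, against 21.8, 19.6, 7.04 and 5.53 CPM in HG libraries 1 to 4. It was lower in LG in 4 of 4 pairs, at -0.18 ± 0.0812 with the replicate block (edgeR, Benjamini-Hochberg adjusted p = 0.376) and -0.055 ± 0.0770 with the GC and length trend removed as well (adjusted p = 0.813). Libraries 1 and 2 were high and 3 and 4 low in both groups, as were the summed astrocyte markers, whose part was not tested. Gabpa, which encodes a DNA-binding factor of the ETS family, stood at -0.085 ± 0.0879. No gene of these lists passed the edgeR test without or with the block, where the lowest Benjamini-Hochberg adjusted p over them was 0.318. The share of all genes tested that passed was 0% without the block and 0.418% with it.

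Promoters were examined as the stretch of 250 bases before and 50 bases from the start that RefSeq annotates, in RefSeq sequence of GRCm38.p6, which held 69 of the 78 genes. RefSeq starts can differ from the 5′ end of the GENCODE gene, which spans all isoforms and was used for gene positions and for facing starts. The RefSeq start lies 215 bp inside the GENCODE gene for Mrps7 and 7979 bp inside it for Mrps24. Factors of the NRF1, ETS and YY1 type are known regulators of nuclear genes for mitochondria, so their core letters were searched on both strands. The ETS letters CCGGAAG were in 26 of the 69 promoters (37.7%), against 18.9% of promoters of tested protein-coding genes and 9.93% of all promoters in the table. The YY1 letters AAGATGGC were in 12 (17.4%), against 4.96% and 3.19%. The palindromic NRF1 core was in 3 (4.35%), against 2.25% and 1.07%. Any of these 3 was found in 37 promoters (53.6%), against 24.4% and 13.4%. The E-box CACGTG was in 7.25% of family promoters, against 11.4% and 8.09%, and the letters TATAAA in 7.25%, against 8.5% and 15.7%. No match overlapped that of another motif, and a match is a description of letters, not of a bound site.

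A few promoters are printed to show the letters in place, for the gene with the highest fold change, for 3 genes described above and for 1 with the NRF1 letters. Sequences run 5′ to 3′ on the strand of the gene, and capitals mark motif letters on either strand. The Mrps7 promoter (chr11:115603890-115604189 on the plus strand) has the YY1 letters just inside the RefSeq transcript. That of Mrps24 (chr11:5707652-5707951 on the minus strand) holds the reverse complement of TATAAA and, inside the RefSeq transcript, the YY1 letters. The Mrpl58 promoter (chr11:115403502-115403801 on the plus strand) holds the ETS letters at both marked places beside the start. In Mrps12 (chr7:28741772-28742071 on the minus strand) the YY1 letters are upstream on the opposite strand and the ETS letters at the start. Mrpl9 (chr3:94443086-94443385 on the plus strand) has the NRF1 letters, which read the same on both strands.
Mrps7: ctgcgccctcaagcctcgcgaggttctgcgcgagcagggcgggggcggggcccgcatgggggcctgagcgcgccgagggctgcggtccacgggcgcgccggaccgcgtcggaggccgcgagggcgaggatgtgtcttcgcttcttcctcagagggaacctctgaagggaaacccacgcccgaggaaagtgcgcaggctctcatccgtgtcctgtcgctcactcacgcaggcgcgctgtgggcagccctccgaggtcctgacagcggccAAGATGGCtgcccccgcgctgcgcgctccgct
Mrps24: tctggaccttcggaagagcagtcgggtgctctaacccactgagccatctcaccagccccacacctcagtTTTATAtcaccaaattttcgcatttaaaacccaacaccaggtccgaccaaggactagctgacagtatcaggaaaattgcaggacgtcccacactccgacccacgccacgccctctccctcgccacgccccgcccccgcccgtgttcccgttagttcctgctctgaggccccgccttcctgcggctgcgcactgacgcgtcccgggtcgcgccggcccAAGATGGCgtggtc
Mrpl58: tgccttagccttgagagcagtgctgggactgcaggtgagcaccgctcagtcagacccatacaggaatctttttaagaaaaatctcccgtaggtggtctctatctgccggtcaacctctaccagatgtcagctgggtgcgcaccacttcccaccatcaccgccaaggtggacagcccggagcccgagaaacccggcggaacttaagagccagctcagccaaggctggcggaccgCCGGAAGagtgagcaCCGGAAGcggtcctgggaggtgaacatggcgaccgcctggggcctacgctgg
Mrps12: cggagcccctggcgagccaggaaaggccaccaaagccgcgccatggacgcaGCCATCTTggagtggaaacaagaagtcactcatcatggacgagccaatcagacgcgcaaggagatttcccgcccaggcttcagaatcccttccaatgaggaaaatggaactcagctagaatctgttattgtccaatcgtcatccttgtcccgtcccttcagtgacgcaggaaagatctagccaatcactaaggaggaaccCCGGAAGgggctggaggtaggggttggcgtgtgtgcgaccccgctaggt
Mrpl9: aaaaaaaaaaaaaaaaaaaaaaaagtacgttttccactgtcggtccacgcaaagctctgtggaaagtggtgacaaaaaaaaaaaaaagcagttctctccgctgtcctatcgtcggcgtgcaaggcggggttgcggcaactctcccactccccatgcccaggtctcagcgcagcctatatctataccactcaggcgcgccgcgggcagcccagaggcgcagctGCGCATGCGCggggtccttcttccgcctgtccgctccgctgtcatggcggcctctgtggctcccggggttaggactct

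Fold changes were set beside these letters. The median log2 fold change was 0.087 for 25 tested genes with the ETS letters and 0.046 for 43 without. Positive values were held by 21 of the 25 with and 36 of the 43 without them. For the YY1 letters the median was 0.087 for 12 genes with them, all 12 positive, and 0.056 for 56 without, 45 of them positive. For the NRF1 letters it was 0.046 for 3 genes with them, all 3 positive, and 0.061 for 65 without, 54 of them positive. These differences were not tested.

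A start site facing that of another protein-coding gene within 1000 bp, without overlap of the 2 genes at their starts, was found for 18 of the 78 genes (23.1%). The share was 9.8% of tested protein-coding genes. Pairs that overlap at their starts were left out, among them Mrpl36 with Ndufs6 at 29 bp and Mrps7 with Gga3 at 126 bp. The signs of the log2 fold changes were the same in 14 of the 18 pairs and opposite in 4. No such share was counted for facing pairs of other genes, and 84.4% of the tested family had positive values. The 14 pairs are therefore not read as a link between facing genes. Among the 18 pairs counted, the 5 with starts within 50 bp, a limit chosen after the values were seen, held 3 of the same sign. Of these, Mrpl54 faces Apba3 at 26 bp, with 0.062 and 0.18. Mrps34 faces the DNA repair gene Eme2 at 29 bp, with 0.19 and 0.17, and Mrps18b faces Ppp1r10 at 45 bp, with 0.021 and 0.022. Signs were opposite for Mrps18c (0.11) and Helq (-0.026), 29 bp apart, and for Mrpl57 (0.097) and Ska3 (-0.21), 49 bp apart. Farther apart, opposite signs were seen for Mrpl30 with Mitd1 and for Mrpl40 with Hira. Mrps12, named because its partner too acts in mitochondrial translation, faces Sars2, the mitochondrial seryl-tRNA synthetase, at 172 bp, and their log2 fold changes were 0.11 and 0.15. No partner had an adjusted p under 0.05 in the edgeR test.

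Exons are shared with another gene by 33 of the 78 genes, 8 on the same strand and 28 on the opposite one, so their counts are uncertain to that extent. Mrps11 and Mrpl46 overlap each other by 173 bp on opposite strands, at log2 fold changes of 0.010 and 0.016. Mrpl43 shares 507 bp with the mitochondrial helicase gene Twnk, and Mrpl47 shares 616 bp with Ndufb5, a complex I subunit gene. A pseudogene transcript of at least 95% identity over at least 50% of the family gene's own transcript exists for 7 genes (Mrpl21, Mrpl22, Mrpl23, Mrpl27, Mrpl42, Mrps10 and Mrps21). Among these pseudogenes, 2 held many counts over the 8 libraries, Mrpl23-ps1 with 4327 beside 15161 for Mrpl23, and Gm6181 with 5671 beside 25098 for Mrps21. Reads of these copies may have been split, and for the other 5 genes the copy held 54 to 402 counts.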

How the data were processed

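RNA of 8 libraries was measured, 4 LG and 4 HG, grouped by the treatment given in the labels. The authors deposited whole-number counts for each Ensembl gene, without normalization, and columns were matched to libraries by name. Per the submitters' processing notes, the build was mm10 and the tools were STAR, featureCounts, CASAVA 1.8.2 and DESeq2, their roles and order unstated. Not given in the sources used here are the annotation release, strand use and the treatment of reads with several matches, which bear on genes with overlaps or near-identical copies. Symbols and coordinates come from GENCODE M21 on GRCm38, which named 52125 of 56980 IDs.

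Counts were tested in R 4.3.3 with edgeR 4.0.16 (filterByExpr, TMM, robust quasi-likelihood test, Benjamini-Hochberg adjustment at 0.05 over 18905 genes), without a block. An SE is the log2 fold change divided by the square root of its F statistic, and intervals are at 95%. Log2 CPM values used a prior count of 2. Pseudogenes were matched with blastn 2.17.0. DESeq2 1.42.0, limma-voom (limma 3.58.1), other scaling and filters, blocks, a GC and length trend removed with mgcv 1.9.3, and left-out libraries, pairs or preparations were the alternatives.

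Library numbers come from the titles. Deviations from group means correlated at 0.448 to 0.625 between same-numbered LG and HG libraries, and at 0.419 or less between others, so the numbers were taken to pair the libraries. Chi-square per degree of freedom between libraries of a group was at least 19.0, so none repeats another.

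Members and gene lists were chosen with earlier results of these data known. Named were members past the threshold, the 6 highest and 6 lowest log2 fold changes, the 5 highest and 3 lowest levels per length, members chosen for their role, and the 2 highest and 2 lowest genes of each pathway list. Of 13 translation factors listed, Mtres1 had no matching row. Confidence intervals cover the spread between libraries, and depth was 50864130 to 65733928 counts per library.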

Additional observations from a re-analysis of the deposited data

Results flagged for a closer look

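Mrps35 stood at 38.9 CPM in LG library 3, against 30.3 to 31.8 CPM in the other LG libraries, a gap above Dixon's 95% critical value for 4 samples. Of 104 groups of 4 libraries looked at this was the 1 such case, where chance gives about 5.2.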

How the results depend on the processing

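The members called (0) stayed at 0 under all 24 alternatives, which were chosen with earlier results of these data known. Genes called over the whole table were 0, and 4 with DESeq2, 79 with the replicate block, 151 with the replicate block and the GC and length trend removed, 1 with the preparation as a block, and 0 to 148 when 1 library or 1 pair was left out (148 without pair 4, with the block). For none of these moves was the cause tested. The block keeps the family at 64 of 77 positive values and changed no call of a gene named by the rule. The neighbour Mif4gd, outside that rule, passed with the replicate block and not without a block. Members with a positive value were 62 to 66 under other tools, scaling, filters, blocks and trends, 47 to 72 with 1 library or pair left out, and 40 without the preparation of libraries 1 and 2. The family median stayed above 0, from 0.0027 to 0.115.

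Of 50 named genes, 27 kept their sign throughout. Sign changes, all of genes below the threshold, were, as log2 fold changes: with DESeq2, Ptcd3 0.0040; with relative log expression factors, Ptcd3 0.0040; with no filter, Ptcd3 0.0021; with limma-voom, Mrpl12 -0.013; with library totals, Mrpl12 -0.00013; with a filter at 1 CPM, Mrpl12 -0.0047; with the replicate block, Mrpl12 -0.0082; with the preparation block, Mrpl12 -0.00028. With the GC and length trend removed they were Mrpl50 0.038, Mrpl51 0.011, Mrpl47 0.010, Mrps33 0.069, Mrpl12 -0.057, Ptcd3 0.090, Ssbp1 0.015, Mterf1a 0.040 and Gabpa 0.019, and with the replicate block as well Mrpl50 0.031, Mrpl51 0.010, Mrpl47 0.0051, Mrps33 0.066, Mrpl12 -0.063, Ptcd3 0.087, Ssbp1 0.016, Mterf1a 0.038 and Gabpa 0.017. Without the preparation of libraries 1 and 2 they were Mrpl50 0.031, Mrpl34 -0.010, Mrpl28 -0.025, Mrpl12 -0.060, Mrpl45 -0.080, Mrps18b -0.083, Mtrf1l 0.012, Esrra -0.011 and Gabpa 0.017. With 1 library or pair left out, ranges that crossed 0 were Mrpl12 (-0.11 to 0.069), Mrpl45 (-0.048 to 0.12), Mterf1a (-0.16 to 0.028), Mrps33 (-0.077 to 0.057), Gadd45gip1 (-0.10 to 0.058), Mrpl11 (-0.0080 to 0.16), Mrps18b (-0.033 to 0.10), Ptcd3 (-0.055 to 0.043), Mrps31 (-0.14 to 0.024), Mrps6 (-0.24 to 0.073), Mrpl47 (-0.11 to 0.024), Mrps22 (-0.11 to 0.043), Ppargc1a (-0.49 to 0.12), Mrpl34 (-0.0028 to 0.21), Mrpl10 (-0.013 to 0.12), Polg2 (-0.0075 to 0.24), Esrra (-0.0054 to 0.11), Ssbp1 (-0.17 to 0.029), Gabpa (-0.18 to 0.0026) and Mrpl51 (-0.082 to 0.012).

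Each tested member had at least 229 counts in every library, and the 4 libraries of a group carry 3 preparation codes.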
